A study of Aspergillus oryzae with 8 samples.

Results

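Aspergillus oryzae genes that were expressed in mycelium grown on agar and silent, or nearly so, in mycelium grown in shaken liquid numbered 38 of the 11880 genes listed in the files. They were chosen by their levels. A gene was a member when it had at least 5 CPM (reads per 1000000 reads counted in the library) in each of the 4 agar libraries and at most 2 CPM in each of the 4 liquid libraries. The limits were met by 51 genes, of which 13 belong to a set of 28 locus tags that the rule leaves out by name. The agar limit alone was met by 5927 genes and the liquid limit alone by 2964.

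The fungus was strain RIB40 throughout, in a modified CD medium with 2.0% glucose at pH 5.5. RNA was sequenced in 4 conditions with 2 libraries each. In solid culture with DTT, the cellophane carrying the mycelium was moved onto filter paper wetted with 20 mL of medium that held 20 mmol/L dithiothreitol (DTT). Solid control mycelium grew on cellophane over agar for 40 h at 30 °C. In liquid culture with DTT, the same concentration was reached by adding the compound to the culture. Liquid control mycelium grew in 30 mL of medium, shaken at 200 rpm, for 40 h at 30 °C. The labels give neither the length of the DTT exposure nor a control that was moved to filter paper without DTT, so on agar the compound and the transfer cannot be told apart. Replicate 1 of every condition came from fragments of 500 bp and replicate 2 from fragments of 200 bp. The labels name no separate cultures behind the replicates, so every p-value below covers only how far the 2 libraries of a condition differed, and that may be technical.

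Aspergillus oryzae is the mould used to make koji, in which it grows over the surface of steamed grain. Filamentous fungi on a surface build aerial hyphae and meet air on one side, whereas hyphae in a shaken flask stay submerged, and some fungal genes are known to be expressed mainly in surface culture. In fungal genomes, the genes of one secondary metabolite pathway often lie side by side and are transcribed together. DTT reduces disulfide bonds, so that secreted proteins misfold in the endoplasmic reticulum (ER).

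The libraries held 5880753 to 8912897 counted reads, and 3 reads in a library corresponded to 0.34 to 0.51 CPM. Between 8.2% and 37.6% of the reads of a library came from 3 rRNA genes, which are in the CPM total on which the rule rests. Of 7 ER folding and degradation genes, 3 rose and 0 fell in solid culture with DTT by edgeR's test, described below, among them bipA (AO090003000257), which encodes the Hsp70 chaperone of the ER lumen. It had 7072 and 11616 CPM in the solid DTT libraries and 685 and 926 CPM in the solid control libraries.

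**Figure D1:**
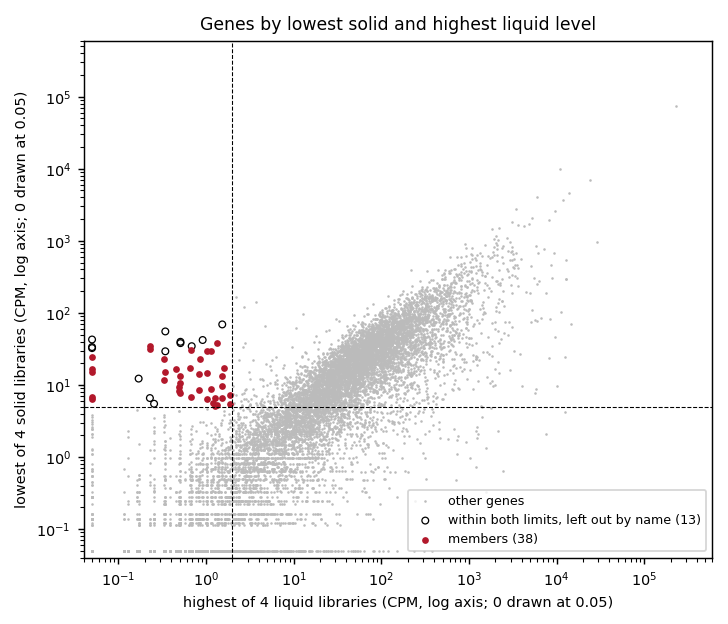
Each point is a gene, placed by its highest level in the 4 liquid libraries (horizontal) and its lowest level in the 4 solid libraries (vertical), both in CPM on log axes with 0 drawn at 0.05. The dashed lines are the limits of 2 and 5 CPM. The 38 members (red) and the 13 genes left out by name (open circles) lie in the upper left field, away from the diagonal cloud of the other genes.

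All 38 members are protein-coding in the reference gene table, and 1 of them has a symbol there, fmpA (AO090001000015). The others are given by their locus tags, since no annotation used here gives them a name or a role. Members and other genes lay close together at the limits. The lowest solid level was 5.06 CPM in AO090001000507, 5.20 CPM in AO090026000799 and 5.34 CPM in fmpA, which were just inside. AO090005000610 at 4.65 CPM, AO090001000506 at 4.51 CPM and AO090026000147 at 4.38 CPM were just outside. On the liquid side, the highest level was 1.87 CPM in fmpA, 1.87 CPM in AO090701000826 and 1.60 CPM in AO090020000380. Just outside were AO090120000086, AO090023000902 and AO090010000344, each at 2.04 CPM.

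Levels on agar were moderate. The mean over the 4 solid libraries ranged over the members from 6.84 to 83.3 CPM with a median of 23.4 CPM, while the median of all 9438 genes tested was 22.0 CPM. These medians are not like for like. By the rule all members had at least 5 CPM in every solid library, whereas means of the genes tested began at 0.028 CPM. In 6 members the mean was 50 CPM or more, in 15 it lay between 20 and 50 CPM and in 17 it was under 20 CPM. The highest mean was that of AO090011000225, with 78.1 and 22.9 CPM in solid DTT and 167 and 65.5 CPM in solid control, against 0 and 0 CPM in liquid DTT and 0.850 and 0 CPM in liquid control. Its solid DTT and solid control libraries overlapped, and 3 of its 4 liquid libraries held no read.

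The next was AO090038000099, with 35.0 and 81.3 CPM in solid DTT and 65.1 and 131 CPM in solid control. In liquid it had 0 and 0.229 CPM with DTT and 0 and 0 CPM in control. In both solid conditions its replicate 2 was the higher library. AO090701000826 had 15.4 and 269 CPM in solid DTT, 7.12 and 15.1 CPM in solid control, 1.32 and 0.229 CPM in liquid DTT and 1.87 and 1.79 CPM in liquid control. A single library, solid DTT replicate 2, set its high mean, since the other 3 solid libraries stood at 15.4 CPM or less. Among the members it had the widest range on agar, 37.8-fold between its highest and lowest solid library, where the median member had 2.71-fold.

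AO090003000412 had 29.5 and 75.2 CPM in solid DTT, 37.2 and 115 CPM in solid control and at most 1.02 CPM in liquid. AO090102000446 had 35.4 and 72.4 CPM in solid DTT, 29.6 and 45.03 CPM in solid control and at most 1.15 CPM in liquid. Both showed overlapping DTT and control libraries on agar. The other members of the 10 highest means are described below with their neighbours or with DTT. At the low end, fmpA had 6.97 and 8.98 CPM in solid DTT, 5.34 and 6.09 CPM in solid control, 0.824 and 1.03 CPM in liquid DTT and 1.87 and 0.766 CPM in liquid control.

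**Figure D2:**
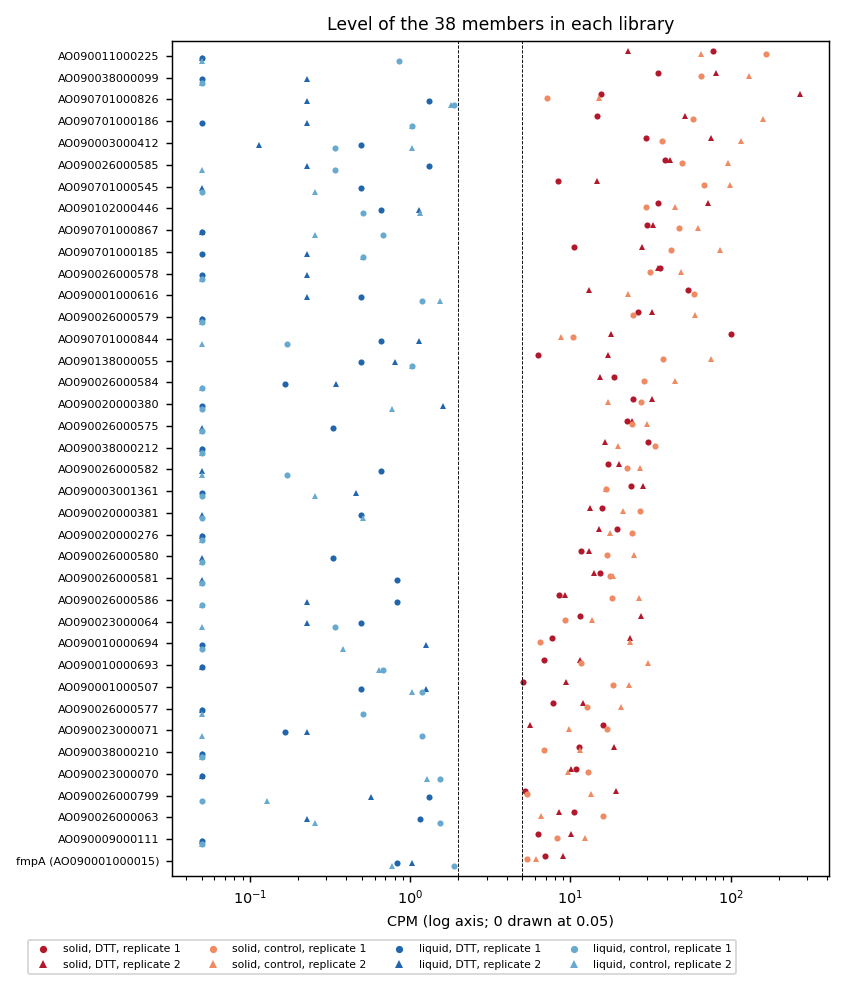
CPM of each member (rows, sorted by mean solid level) in each of the 8 libraries, on a log axis with 0 drawn at 0.05. Circles are replicate 1 and triangles replicate 2, and the dashed lines are the limits of the rule. Solid values reach 269 CPM in AO090701000826, and most members have at least 1 liquid library at 0.

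Coding length changed the order of the levels. Lengths, recovered from the deposited coverage, ran from 309 to 11964 bp over the members with a median of 1408.5 bp, against 1206 bp over the genes tested. Per kb of coding sequence the mean solid level ranged from 1.59 CPM per kb in AO090038000210 to 152 CPM per kb in AO090011000225, with a median of 15.9 CPM per kb. Members with a coding length over 4000 bp were AO090020000380 (11964 bp), AO090701000826 (7584 bp), AO090038000210 (7578 bp) and AO090026000585 (4017 bp). They made up 10.5% of the members, and genes of that length made up 2.75% of the genes tested. Under 700 bp were 7 members, 18.4%, against 20.6% of the genes tested.

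The short members stood apart between replicates on agar. Replicate 1, with the longer fragments, was higher than replicate 2 both with DTT and in control in 5 of 7 members under 700 bp and in 4 of 31 longer ones. Over all genes tested the same held for 26.3% of 1928 genes under 700 bp and 11.3% of 7451 longer genes. AO090001000616 is the shortest member at 309 bp, and it had 54.4 and 13.1 CPM in solid DTT and 59.4 and 22.8 CPM in solid control. The part of fragment size in these differences was not tested.

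In liquid the members were at or near the floor of detection. Over the 4 liquid libraries together, 5 members had 0 reads, 5 had 1 to 3 reads, 13 had 4 to 10 and 15 had more than 10, at most 35. The highest liquid library of the median member stood at 0.752 CPM. The members with 0 reads in liquid were AO090026000579, AO090038000212, AO090038000210, AO090020000276 and AO090009000111. A count of 0 allows up to 3 reads per library, which is counting error only.

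Folds of solid over liquid describe how the members were chosen and carry no test. Against 0 reads they are lower bounds from a floor of 3 reads over both libraries of a condition. They take the solid reads as counted. AO090026000579 had 479 reads in solid DTT and 0 in liquid DTT, at least 146-fold higher on agar, and 647 reads in solid control and 0 in liquid control, at least 206-fold higher. AO090009000111 had the lowest bound with DTT, at least 41.4-fold, from 136 reads in solid DTT and 0 in liquid DTT. The smallest ratio in the list was that of fmpA in control, 4.65-fold (95% binomial interval 2.74 to 8.37, counting error only), from 83 reads in solid control and 17 in liquid control.

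The deposited coverage, the fraction of a gene's length touched by reads, is a readout that the rule did not use, although it comes from the same reads. The lowest solid coverage of every member was above its highest liquid coverage. The limits of the rule on reads largely set this order in advance, so it is no separate support. In solid libraries 30 members were covered to 90% or more in both 200 bp fragment libraries. In liquid 5 members had no base covered in any library, and 27 stayed under 25% in all 4. Coverage of 50% or more in liquid occurred in 2 members. AO090001000616 was covered to 90.6% by 12 reads in liquid control replicate 2, on its 309 bp. AO090701000844, of 546 bp, was covered to 51.1% by 10 reads in liquid DTT replicate 2.

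Coverage and read counts did not always match. Because a read has 44 bases, the covered bases set a smallest number of reads. In 16 of the 152 liquid values of members, from 13 members, more reads were needed than were counted, and in the solid values this was never so. AO090003000412 was listed with 1 read in liquid DTT replicate 2 while 362 of its bases were covered, which takes at least 9 reads. Such values were 19.0% of the 84 listed liquid values of members and 19.2% of 12195 values with up to 20 reads over all genes in liquid. With the reads raised to what the coverage needs, the highest liquid value of a member was 1.87 CPM, and all 38 stayed within the limit.

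The members were unevenly placed along the chromosomes. The rule did not use position, and the gene order of the reference table (assembly ASM18445v3) was used for it. Members were found on all 8 chromosomes. Of the 38, 20 (52.6%) had another member with at most 2 genes between them, and 19 (50%) were directly beside one. Among the other 11842 listed genes, 140 (1.18%) had at most 2 genes between them and a member. One run held 10 members, 5 pairs held 10 more, and 18 members had no member nearby.

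The run of 10 lay within 11 consecutive genes, AO090026000586 to AO090026000575. Together its members had 203 and 217 CPM in solid DTT and 247 and 399 CPM in solid control, against 4.45 and 1.03 CPM in liquid DTT and 1.02 and 0 CPM in liquid control. The sums with and without DTT on agar did not overlap, and in liquid control replicate 2 none of the 10 genes had a read. The run supplied 18.5% to 25.9% of all members' reads on agar.

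AO090026000585 was the highest of the run in CPM, with 38.7 and 41.6 CPM in solid DTT, 50.03 and 96.4 CPM in solid control, 1.32 and 0.229 CPM in liquid DTT and 0.340 and 0 CPM in liquid control. AO090026000578 had 36.4 and 35.0 CPM in solid DTT, 31.6 and 48.9 CPM in solid control, 0 and 0.229 CPM in liquid DTT and 0 CPM in both liquid control libraries. Per kb this gene was the highest of the run at 26.8 CPM per kb, and AO090026000586 the lowest at 7.49 CPM per kb, as means over the 4 solid libraries. AO090026000579 had 26.3 and 32.2 CPM in solid DTT and 24.6 and 60.2 CPM in solid control, with no liquid read.

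AO090026000584 had 18.6 and 15.3 CPM in solid DTT and 28.8 and 45.03 CPM in solid control, and AO090026000586 had 8.48 and 9.20 CPM against 18.1 and 26.8 CPM in the same libraries. In both genes the DTT libraries lay below the control libraries. AO090026000582, AO090026000581, AO090026000580 and AO090026000575 had 11.6 to 24.1 CPM in the solid DTT libraries and 16.8 to 30.2 CPM in the solid control libraries. AO090026000577, the lowest of the run in CPM, had 7.79 and 12.01 CPM in solid DTT and 12.6 and 20.7 CPM in solid control. The proportions within the run were similar between agar libraries. Each gene's share of the run's summed CPM per kb differed between its highest and lowest solid library by at most 1.77-fold (AO090026000586, 3.07% to 5.43%). Across the 10 genes the log2 CPM per kb of the solid libraries correlated at 0.819 to 0.958 (Pearson, 6 pairs of libraries, which share gene lengths).

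The eleventh gene of the stretch, AO090026000576, was not a member and was named after its values were seen. It had 122 and 33.3 CPM in solid DTT and 128 and 68.0 CPM in solid control, with 2.64 and 0 CPM in liquid DTT and 1.36 and 0 CPM in liquid control. It missed the rule in 1 library, liquid DTT replicate 1. Beyond the run on one side, AO090026000574 had at most 0.273 CPM in any library. On the other side, AO090026000587 had 0.547 and 0.785 CPM in solid DTT and 1.62 and 10.8 CPM in solid control, and AO090026000588 had 0.137 and 0.785 CPM in solid DTT and 5.67 and 7.06 CPM in solid control. These flanking genes too were named after their values were seen.

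**Figure D3:**
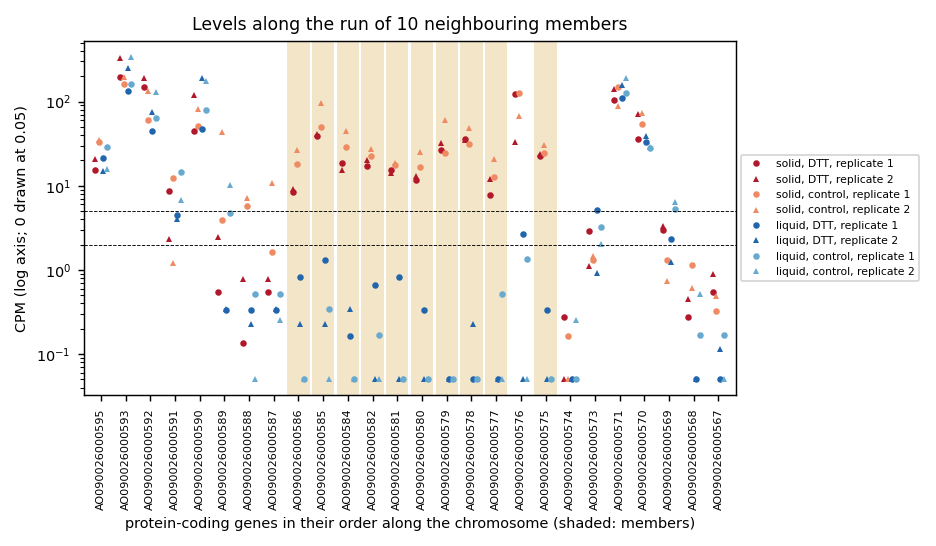
CPM in each library along the protein-coding genes around the run, in their order on the chromosome (log axis, 0 drawn at 0.05). Shaded columns are the 10 members, and the dashed lines are the limits of 5 and 2 CPM. Within the shaded stretch the solid points lie above 5 CPM and the liquid points below 2 CPM, while most genes further out have solid and liquid points at like levels or are low in both.

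In the 5 pairs the neighbours differed in how sharply the pattern ended. AO090701000186 had 14.6 and 51.7 CPM in solid DTT and 58.3 and 160.2 CPM in solid control, and AO090701000185 beside it had 10.5 and 28.2 CPM in solid DTT and 42.4 and 86.4 CPM in solid control. Both genes ranked their 4 solid libraries in the same order, with solid DTT replicate 1 the lowest and solid control replicate 2 the highest. The genes on either side, AO090701000187 and AO090701000184, had 6.40 to 19.5 CPM in every liquid library and so did not share the silence in liquid.

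AO090038000212 had 30.6 and 16.5 CPM in solid DTT and 33.8 and 19.8 CPM in solid control, and its partner AO090038000210 had 11.3 and 18.7 CPM in solid DTT and 6.80 and 11.4 CPM in solid control. Neither had a read in liquid. AO090038000213, next to them, had 2.46 to 3.93 CPM on agar and 0 in liquid, below the solid limit. AO090020000381 had 15.7 and 13.2 CPM in solid DTT and 27.0 and 21.3 CPM in solid control, and the long gene AO090020000380 beside it had 24.6 and 32.1 CPM in solid DTT and 27.5 and 17.3 CPM in solid control. The following gene, AO090020000379, had at most 0.365 CPM in any library.

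AO090010000694 had 7.66 and 23.4 CPM in solid DTT and 6.48 and 23.6 CPM in solid control, and AO090010000693 had 6.84 and 11.4 CPM in solid DTT and 11.7 and 30.7 CPM in solid control. Next to them AO090010000692, AO090010000691 and AO090010000690 had 0 reads in liquid and 1.09 to 12.3 CPM on agar, with their lowest solid library under the limit. AO090023000070 had 10.8 and 10.1 CPM in solid DTT and 12.95 and 9.61 CPM in solid control, and AO090023000071 had 16.0 and 5.61 CPM in solid DTT and 17.0 and 9.86 CPM in solid control. Beside this pair AO090023000072 had 24.5 and 29.3 CPM in solid DTT and 30.1 and 48.0 CPM in solid control, but 0 and 0 CPM in liquid DTT and 6.29 and 4.59 CPM in liquid control, so it missed the liquid limit in the control libraries alone. The neighbours of the pairs were named after their values were seen.

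Some members without a member nearby also had neighbours of a like pattern. AO090701000867 had 30.1 and 32.5 CPM in solid DTT and 47.3 and 62.3 CPM in solid control, against 0 and 0 CPM in liquid DTT and 0.680 and 0.255 CPM in liquid control. The next 7 genes on one side, AO090701000866 to AO090701000860, had at most 0.255 CPM in any liquid library, and each had both its solid control libraries at 3.89 CPM or more. In all 7 both solid DTT libraries lay below both solid control libraries. AO090701000861 had 3.42 and 20.8 CPM in solid DTT and 54.2 and 171 CPM in solid control. AO090701000862 had 0.820 and 1.68 CPM in solid DTT and 22.2 and 61.0 CPM in solid control, and AO090701000865 had 0.957 and 0.785 CPM against 10.5 and 24.9 CPM in the same libraries. All 7 missed the solid limit with DTT, and 3 of them, AO090701000866, AO090701000863 and AO090701000860, missed it in a solid control library too. The 7 were named after their values were seen.

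**Figure D4:**
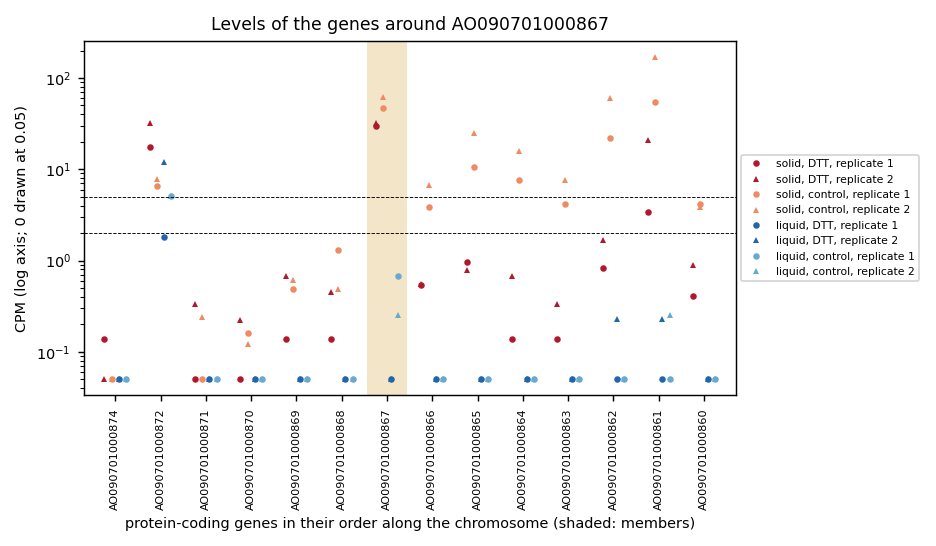
CPM in each library for AO090701000867 (shaded) and the protein-coding genes around it, in their order on the chromosome (log axis, 0 drawn at 0.05, limits of 5 and 2 CPM dashed). AO090701000867 keeps 30.1 CPM or more in all solid libraries, whereas the genes to its right have solid control points well above their solid DTT points and liquid points at or near 0.

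AO090001000507 showed a similar setting. It had 5.06 and 9.42 CPM in solid DTT and 18.5 and 23.1 CPM in solid control. On one side AO090001000506 had 4.51 and 8.19 CPM in solid DTT and 7.77 and 9.37 CPM in solid control, and on the other AO090001000508 had 0.547 and 4.49 CPM in solid DTT and 21.7 and 18.3 CPM in solid control. Both had at most 0.457 CPM in liquid.

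Whether DTT changed the members on agar was tested with edgeR's quasi-likelihood test over all genes, with Benjamini-Hochberg adjustment. The rule asked for at least 5 CPM in both solid DTT libraries, so genes that were below this with DTT could not be members. Of the 73 genes that met the limits on the control libraries only, 25 were called lower with DTT on agar and 0 higher. These 73 were defined by missing a limit with DTT, and 58 of them missed the solid one. Their direction on agar was thus largely set by that choice. Of the 38 members 2 fell and 0 rose at an adjusted p under 0.05, which is 5.26% of the members where 9.30% of all genes tested were called, and the rule limits how this share can be read. Falls were called in 4.44% of all genes and rises in 4.86%. All members were tested, as each passed the filter on low counts through its solid reads.

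AO090701000545 had 8.34 and 14.7 CPM in solid DTT and 68.6 and 99.6 CPM in solid control, so the groups lay far apart. Its log2 fold change was -2.87 ± 0.74 (SE), with an adjusted p of 0.0442 in edgeR's test. AO090138000055 had 6.29 and 17.1 CPM in solid DTT and 37.7 and 75.6 CPM in solid control, again without overlap. Its log2 fold change was -2.31 ± 0.50, with an adjusted p of 0.0274 in edgeR's test. Both calls were lost when any 1 of the 4 solid libraries was left out, with adjusted p by edgeR of 0.129 to 0.200 for AO090701000545 and 0.0745 to 0.176 for AO090138000055, while the log2 fold changes stayed between -2.997 and -1.90.

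With the replicate number as a block, 5 members (13.2%) fell, where 1897 of 9438 genes (20.1%) were called, with AO090701000185, AO090701000186 and AO090001000507 added (edgeR adjusted p of 0.0206, 0.0210 and 0.0471). Without the block their log2 fold changes were -1.77 ± 0.55, -1.76 ± 0.60 and -1.54 ± 0.50, and their adjusted p by edgeR were 0.0760, 0.0973 and 0.0885. At an unadjusted p under 0.05 by edgeR there were 7 members, 18.4%, against 28.0% of all genes tested.

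The largest positive values were each set by 1 library. AO090701000826, whose levels are given above, had a log2 fold change of 3.50 ± 1.08 and an edgeR adjusted p of 0.0758. Without solid DTT replicate 2 its value was 0.92, and without solid DTT replicate 1 it was 4.36 and called (edgeR adjusted p of 0.0340). AO090701000844 had 99.9 and 18.0 CPM in solid DTT and 10.4 and 8.76 CPM in solid control, a log2 fold change of 2.85 ± 0.90 with an edgeR adjusted p of 0.0798. Here the high library was solid DTT replicate 1. Without it the value was 0.62, and without solid DTT replicate 2 it was 3.76 and called (edgeR adjusted p of 0.0496).

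The median log2 fold change was -0.28 over the 38 members and -0.05 over all genes tested. It was -0.67 over the members without solid DTT replicate 1, and between -0.38 and -0.22 without any other 1 library. Values below 0 were found in 28 members (73.7%), against 51.8% of the genes tested. Both DTT libraries lay below both control libraries in 16 members (42.1%), where 28.4% of all genes did so, and above both in 4 members (10.5%), where 25.5% of all genes did so. In the run of 10 neighbours every fitted value was below 0, from -1.28 to -0.09 with a median of -0.58, and none was called. The 10 genes lie side by side and moved in like proportions, so they are not 10 separate observations. All of them except AO090026000579 and AO090026000578 were among the 16 members with both DTT libraries below both control libraries. In the 28 members outside the run the median log2 fold change was -0.19, with 18 values below 0 and 10 above. The median of the run was -0.33 without solid DTT replicate 2 and -0.86 without solid control replicate 1.

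**Figure D5:**
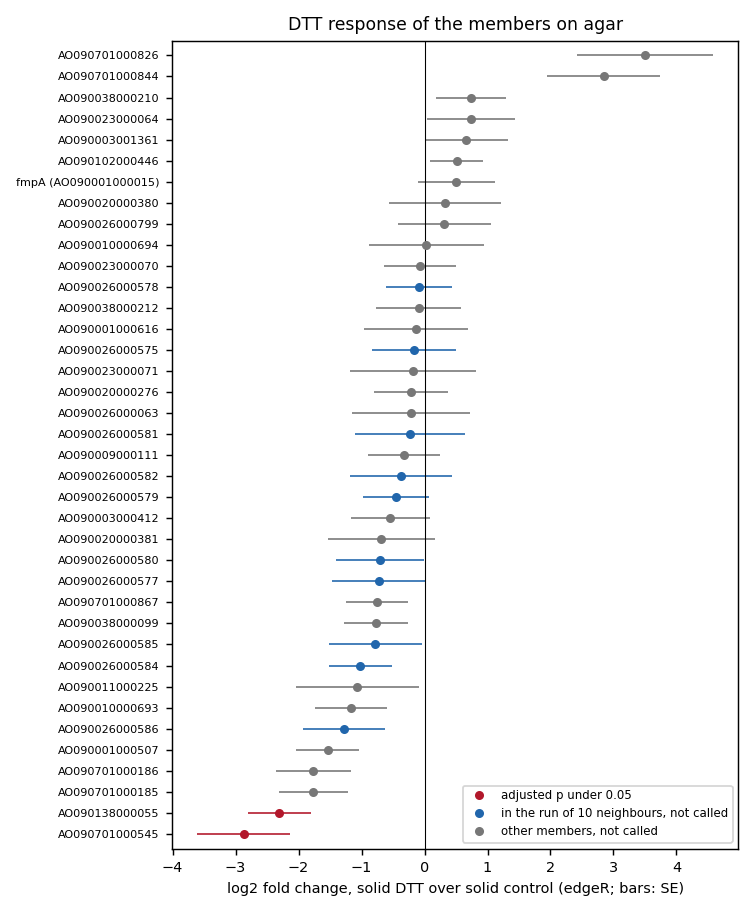
Fitted log2 fold change of each member, solid DTT over solid control, with its standard error (edgeR, 2 libraries per condition). Red marks the 2 members called at an adjusted p under 0.05, blue the run of 10 neighbours and grey the other members. The 10 blue points lie between -1.28 and -0.09, and 10 members, none of them in the run, lie above 0.

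In liquid culture the members' reads were too few for more than large differences to be detectable. By the same edgeR test 3 members were called lower with DTT and 0 higher, 7.89% of the members where 20.0% of all genes tested were called. Members passed the filter on low counts through their solid reads, so genes with this few liquid reads were tested. The rule kept every liquid library of a member at or under 2 CPM, so the members' share is set by their low counts and is not a result beside that of all genes. Over all genes, 11.1% fell and 8.91% rose. At an unadjusted p under 0.05 there were 8 members (21.1%), against 36.2% of all genes. Both DTT libraries lay below both control libraries in 8 members (21.1%; 34.5% of all genes) and above both in 4 (10.5%; 21.5% of all genes). AO090023000070 had 0 and 0 reads in liquid DTT and 9 and 10 reads in liquid control, at least 6.84-fold lower with DTT (edgeR adjusted p of 0.0158). AO090010000693 had 0 and 0 reads in liquid DTT and 4 and 5 reads in liquid control, at least 3.24-fold lower (edgeR adjusted p of 0.0339). AO090701000867 had 0 and 0 reads in liquid DTT and 4 and 2 reads in liquid control, at least 2.16-fold lower (edgeR adjusted p of 0.0473). These bounds put 3 reads on the side with 0 and take the control reads as counted, so counting error could make them smaller. With the replicate block these 3 genes and AO090701000186 fell (edgeR adjusted p of 0.0374 for AO090701000186, log2 fold change -2.82).

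These calls rest on low counts. In liquid DTT replicate 2, AO090023000070 and AO090701000867 were each listed with 0 reads although 88 of their bases were covered, which takes 2 reads. With reads raised to the covered bases the edgeR adjusted p was 0.0437 for AO090023000070, 0.0294 for AO090010000693 and 0.247 for AO090701000867, which was no longer called. Without liquid control replicate 1, no member was called, and AO090023000070 had an edgeR adjusted p of 0.0522. Without liquid DTT replicate 2 the 3 falls were not called and 3 other members rose, AO090026000581, AO090026000586 and AO090026000799 (edgeR adjusted p of 0.0288, 0.0256 and 0.0481). They had 5, 5 and 8 reads in liquid DTT replicate 1 and 0, 0 and 1 read over both liquid control libraries. AO090026000586 was also called as a rise by DESeq2 (adjusted p of 0.0323) and by edgeR without the low-count filter (adjusted p of 0.0377). The falls with all libraries were those of AO090023000070, AO090010000693 and AO090701000867. On agar they had log2 fold changes of -0.07 ± 0.57, -1.17 ± 0.57 and -0.75 ± 0.49, in that order, and none was called.

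Whether DTT acted differently on agar and in liquid was tested as a difference of the log2 fold changes. By edgeR no member and none of the 9438 genes was called (0%). At an unadjusted p under 0.05 there were 8 members (21.1%) and 1003 genes (10.6%). The rule capped the members' liquid levels, so their differences rest on few liquid reads. The members' share is therefore not a result beside that of all genes. DESeq2 called 217 genes, among them 0 members. With so few liquid reads this comparison had little power for the members.

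How much the list depends on which libraries were used was examined by applying the limits to 4 libraries at a time, a choice made after seeing the data. On the 4 control libraries alone, 111 genes met both limits, and 38 of them (34.2%) met them with DTT too. Of the rest, 58 missed the solid limit and 25 the liquid limit in a DTT library, with 10 missing both. On the 4 DTT libraries alone 151 genes qualified, of which 89 missed the liquid limit in a control library. Replicate 1 alone gave 63 genes and replicate 2 alone 95. The 73 genes that qualified on control libraries only included 8 (10.96%) with at most 2 genes between them and a member. Among the 8 were AO090701000864, AO090701000865 and AO090001000508. Of the 11769 remaining listed genes, 132 (1.12%) lay so near a member.

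Of 38 symbols of conidiophore and conidium genes searched, 10 were found in the reference table, and so were 2 of 7 for sclerotia and sexual development, 2 of 8 core growth genes and 11 of 26 for cell surface and wall. None of the genes found was a member. None of 24 hydrolase symbols was found, so those genes were not examined, and members without a symbol could not be matched to any list. The levels of the 10 genes found from the conidiophore and conidium list were summed. The libraries ranged from 265 to 384 CPM in solid DTT and 347 to 570 CPM in solid control. In liquid they ranged from 388 to 599 CPM with DTT and 546 to 551 CPM in control. The sum was not higher on agar, but it is no measure of conidiation and says little about single genes. Large parts of it came from medA (up to 248 CPM in a library), veA (up to 164 CPM) and nsdD (up to 124 CPM). In contrast, brlA added at most 23.3 CPM.

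Of these 10, brlA (AO090005001041), the transcription factor that starts conidiophore development in Aspergillus, alone had all 4 solid libraries above all 4 liquid ones, as did 5.22% of all genes tested. It had 9.57 and 23.3 CPM in solid DTT and 7.61 and 11.3 CPM in solid control, against 1.48 and 2.29 CPM in liquid DTT and 2.72 and 1.28 CPM in liquid control. Its level missed the liquid limit of 2 CPM. wetA (AO090009000260), which acts late in conidium maturation, had 28.4 and 20.3 CPM in solid DTT and 16.7 and 16.3 CPM in solid control, against 150.2 and 41.1 CPM in liquid DTT and 32.1 and 14.4 CPM in liquid control. In bulk RNA, fewer cells of a type and less RNA per cell cannot be told apart. The part of conidiation in the members' levels was not tested.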

How the data were processed

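Oligo-dT selected RNA of 8 libraries was read as 44 bp paired ends, per the labels' protocols, although the labels call the molecule polyA RNA in replicate 1 and total RNA in replicate 2. Each deposited file holds, per the file headers, a gene's mapped reads, taken as raw counts, and its fraction of covered bases. Not given in the sources used here are the aligner, the build and annotation, how multi-mapping reads were treated, and strand, so overlapping and near-identical genes cannot be separated. Genes absent from a file were taken as 0.

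CPM are counts × 1000000 over the column sum, rRNA genes included. Tests used edgeR 4.0.16 in R 4.3.3 (filterByExpr, minimum count 10, 9438 genes; TMM factors 0.73 to 1.25; glmQLFit and glmQLFTest on all 8 libraries, 1 coefficient per condition, 4 residual degrees of freedom), with Benjamini-Hochberg adjustment over all genes and calls under 0.05. Each SE is the log2 fold change over the root of F. In simulated data for DTT on agar (9438 genes), 28 of 100 genes changed by 2 on the log2 scale were called and 99 of 100 changed by 4. The simulation used a common dispersion, no pairing and, before the change, the same mean in every condition, over 5 CPM in the changed genes. The members are near 0 in liquid, so these rates are not the power for the members. DESeq2 1.42.0 was an alternative. Solid against liquid was not tested, since it chose the members. Coding lengths are denominators of the coverage fractions.

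Replicate numbers mark fragment size in the labels, and replicate differences correlated between conditions at 0.24 to 0.51 over all genes, so they pair the libraries. Over the 38 members the correlation was 0.74 between solid DTT and solid control and -0.0006 between solid DTT and liquid DTT. The main fit left the pairing out, and only the fit with the replicate block took it in. The common biological coefficient of variation was 0.47 without the block and 0.36 with it. RefSeq's gene table for assembly ASM18445v3 held all 11880 listed locus tags and was used for symbols, gene type and order only. Sequence features of the members were not analysed here.

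Named genes were the 10 members highest on agar, those with a symbol, called, nearest a limit, in the run of neighbours or covered to 50% or more in liquid; other names were chosen after their values were seen. The members and lists were chosen with earlier results of these data known.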

Additional observations from a re-analysis of the deposited data

Results flagged for a closer look

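In 3 members every DTT library moved one way from control on agar and the opposite way in liquid, and for each the test of the difference itself did not pass. AO090026000586 had 62 and 82 reads in solid DTT and 112 and 220 in solid control, but 5 and 2 reads in liquid DTT and 0 and 0 in liquid control. The difference of its log2 fold changes, solid minus liquid, was -6.47 (edgeR adjusted p of 0.263). AO090026000584, of the same run of neighbours, had 136 and 136 reads in solid DTT and 178 and 370 in solid control, with 1 and 3 reads in liquid DTT and 0 and 0 in liquid control. Its difference was -5.21 (edgeR adjusted p of 0.276). AO090701000826 had 113 and 2397 reads in solid DTT and 44 and 124 in solid control, with 8 and 2 reads in liquid DTT and 11 and 14 in liquid control. Its difference was 4.50 (edgeR adjusted p of 0.382). In AO090026000586 and AO090026000584 the liquid controls hold 0 reads, so the size of the fitted difference depends on the prior count.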

How the results depend on the processing

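None of the called, nearly called or differing genes refitted singly, and neither median, changed sign under the alternatives run, but the directions of the member calls did. On agar, 2 members called became 6 with DESeq2, 1 with RLE scaling, 4 without the low-count filter and 5 with the replicate block, and 0 to 3 when 1 library was left out. The 2 falls gave way to 1 rise without solid DTT replicate 1 and to 1 rise without solid DTT replicate 2. The 878 genes called in all became 1635 with DESeq2, 1897 with the block and 6 to 1207 when 1 library was left out, with 6 without solid control replicate 1. AO090701000545 had an edgeR adjusted p of 0.0504 with RLE scaling. AO090701000826 and AO090701000844 were called by DESeq2 and without the filter. In liquid, 1885 genes became 2984 with the block, and 614 to 1581 genes and 0 to 3 members were called with 1 library left out. The 3 falls gave way to 3 rises of other members without liquid DTT replicate 2, where 933 genes rose and 648 fell in all, against 841 and 1044 with all libraries. DESeq2 and the fit without the filter added 1 rise, and the block added 1 fall. AO090701000867 was not called by DESeq2 (adjusted p of 0.0695). For the difference, 0 genes became 217 with DESeq2, 26 without the filter, 23 with the block and 0 to 7 with 1 library left out, with 0 members throughout. The causes were not tested.

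The list itself held 21 genes at a solid minimum of 10 CPM, 22 at a liquid maximum of 1 CPM and 38 to 53 with 1 library left out. It held 111 on control, 151 on DTT, 63 on replicate 1 and 95 on replicate 2 libraries. With rRNA genes out of the CPM total it held 39, of which 33 were members. All 10 genes of the run were kept there and at TMM library sizes, 8 at a solid minimum of 10 CPM and 9 at a liquid maximum of 1 CPM. With 2 libraries per condition and at most 35 liquid reads per member, small differences were not detectable.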
